A study of Mus musculus with 17 samples.

Results

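The genes described here are 10 of the 55357 mouse genes measured: the receptors of prolactin and growth hormone (*Prlr*, *Ghr*), the transcription factors *Stat5a* and *Stat5b*, and 6 genes taken as targets of these hormones in β cells (*Cish*, *Socs2*, *Socs3*, *Tph1*, *Tph2*, *Ehhadh*). They were taken by symbol and selected on their values in these samples: lower levels of several of them in *Pcbp2*-deleted than in control cells had been seen. Differences between the genotypes are therefore given below as a description, with no test, whereas differences between glucose concentrations within a genotype were tested. All 10 passed the filter on low counts, among 22784 genes that did.

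The samples were β cells sorted by flow cytometry for the red reporter tdTomato from islets of male mice. The islets had been cultured for 72 hours in low (2.8 mM) or high (16.7 mM) glucose. Before that, by the study's methods, they recovered for 3 days at a glucose concentration between these. No sample from that state is in the series, so glucose differences below compare 16.7 with 2.8 mM only. Which of the concentrations moved a gene cannot be told. Of the 17 samples, 7 were control cells (WT in the sample labels, from mice termed *tdTomato*), with 3 from low and 4 from high glucose. The other 10 came from *Pcbp2*βKO mice (PCBP2KO in the labels, RIP-Cre with *Pcbp2* fl/fl and the reporter), with 5 from each condition. Per the study's methods, the *tdTomato* mice came from a cross of RIP-Cre with the Cre-dependent reporter, and cells of both genotypes were sorted for that reporter, so by design the groups differ in the floxed *Pcbp2* alleles. The rat insulin promoter drives Cre in insulin-expressing cells. Some RIP-Cre transgenes carry a human growth hormone minigene, whose product can bind the prolactin receptor. Whether this line carries one is not given in the sources used here. The labels state no Cre genotype for the control samples. By design, however, the sorted control cells expressed a reporter that Cre switches on. Neither ages nor the number of animals behind a sample are given in the sources used here, and p values measure the spread between samples, which may be partly technical.

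Prolactin, placental lactogens and growth hormone bind cytokine receptors that carry the kinase JAK2. The kinase phosphorylates STAT5, which moves to the nucleus and binds the palindrome TTCNNNGAA near its target genes, among them *Cish* and the *Socs* genes, whose products bind the receptor complex and restrain it. In islets this pathway is best known from pregnancy, when lactogens raise β cell number and insulin secretion, and when tryptophan hydroxylase makes β cells produce serotonin. Growth hormone uses the same route through its own receptor.

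Total estimated counts ranged from 47385513 to 82419400 per sample. *Pcbp2*, the deleted gene, was at 35 to 73.4 CPM (counts per 1000000 counts, after scaling for composition) in the 7 control samples and at 5.81 to 19.2 CPM in the 10 *Pcbp2*βKO samples, so that no sample went against its label. The 10 β cell markers were above 1 CPM on average in every group, while 5 acinar markers summed to at most 0.327 CPM. At 2.8 mM the β cell markers summed to 67330 to 97380 CPM in *Pcbp2*βKO and 119000 to 123200 CPM in control cells, lower in every *Pcbp2*βKO sample. At 16.7 mM these sums were 359000 to 475300 and 272000 to 526100 CPM and overlapped. The pancreatic polypeptide gene, a marker of PP cells, lay at 992 to 5112 CPM in *Pcbp2*βKO and 797 to 835 CPM in control cells at 2.8 mM, and at 290 to 1142 against 224 to 631 CPM at 16.7 mM. The 3 alpha cell markers summed to 1452 to 9162 against 625 to 2544 CPM at 2.8 mM, and to 172 to 1301 against 260 to 1448 CPM at 16.7 mM. The part of these lists in the genotype differences was not tested. The lists for delta, ductal, endothelial, macrophage and stellate cells overlapped between the genotypes at both concentrations. Between concentrations, the β cell sum was higher and the macrophage sum lower at 16.7 mM in both genotypes, without overlap. The alpha cell sum was lower at 16.7 mM without overlap in *Pcbp2*βKO cells only, and the pancreatic polypeptide gene in control cells only. The endothelial sum in control cells was 0.509 to 0.711 CPM at 2.8 mM and 0.890 to 1.15 CPM at 16.7 mM. The part of these lists in the glucose differences was not tested. On the first principal component of all genes, control replicate 4 and *Pcbp2*βKO replicates 4 and 5 at 16.7 mM stood apart, at 9.87 to 33.2 against 90.9 or more in the other 6 samples at 16.7 mM. In bulk samples, fewer expressing cells and less RNA per cell cannot be told apart. No transcript named for Cre, tdTomato or human growth hormone was in the transcript list, and none of them was measured.

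The prolactin receptor gene *Prlr* (chr15:10177258-10349959, plus strand, GRCm39) was at 235, 206 and 311 CPM in control cells at 2.8 mM and at 1067, 1293, 1866 and 426 CPM at 16.7 mM. The *Pcbp2*βKO samples were at 111, 123, 89.3, 86.7 and 58.1 CPM at 2.8 mM and at 484, 479, 498, 256 and 443 CPM at 16.7 mM. Every sample at 16.7 mM was above every sample at 2.8 mM of its genotype, and all 5 *Pcbp2*βKO samples at 2.8 mM were below all 3 controls. At 16.7 mM the genotypes overlapped through control replicate 4, whose level lay within the *Pcbp2*βKO range.

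High glucose raised *Prlr* 4.64-fold in control cells (log2 2.21 ± 0.38 SE, adjusted p = 0.00142, edgeR quasi-likelihood test with Benjamini-Hochberg adjustment over all genes tested). The increase was 4.62-fold in *Pcbp2*βKO cells (log2 2.21 ± 0.31 SE, edgeR adjusted p = 4.91e-05). The increase passed the test in both genotypes under all 25 alternative analyses, with log2 estimates from 1.24 to 2.51 and from 1.31 to 2.35. The fitted genotype difference, on which members were chosen, was -1.43 ± 0.31 (log2, SE) at 16.7 mM and -1.42 ± 0.33 at 2.8 mM. These contrasts share the control samples, or the *Pcbp2*βKO samples, with the glucose contrasts.

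**Figure D1:**
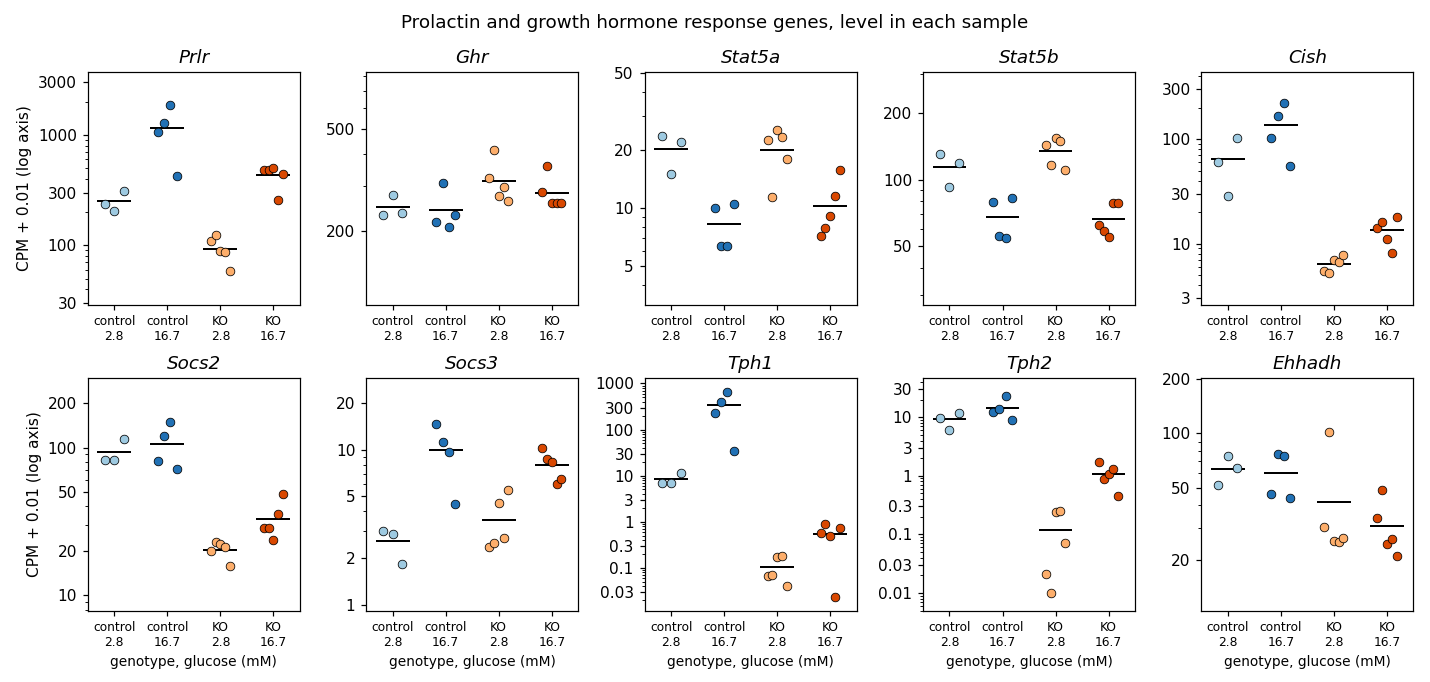
Level of the 10 genes in each of the 17 samples, as CPM + 0.01 on a logarithmic axis, with a horizontal bar at the group mean. Cish, Socs2, Tph1 and Tph2 are lower in every Pcbp2βKO (KO) sample than in every control sample at the same glucose concentration, Ghr, Stat5a and Stat5b overlap, and in Pcbp2βKO cells at 2.8 mM Ehhadh reaches 102 CPM in replicate 2 alone.

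Several transcripts of *Prlr* encode different receptors: the long form signals through STAT5, and the short forms have truncated intracellular parts. Kallisto's estimates assigned 48.5 ± 2.58% (SD, n = 3) of the gene's counts in control cells at 2.8 mM to the 9900-nt transcript Prlr-202, whose reading frame of 608 codons is the long form, and its mean share was 47.8 to 50.8% in the other 3 groups. Prlr-212, with 1190 nt and 303 codons, took 15.8, 14.0 and 15.5% of the counts in control cells at 2.8 mM and 18.8, 15.3, 16.9 and 16.2% at 16.7 mM. Its share of the counts in *Pcbp2*βKO cells was 8.18, 7.45, 5.68, 8.0 and 6.50% at 2.8 mM and 14.0, 11.3, 16.2, 12 and 16.7% at 16.7 mM. The lowest shares of this short form were those of *Pcbp2*βKO cells at 2.8 mM, where every sample was below every sample of the other groups.

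Within *Pcbp2*βKO cells, Prlr-212 and Prlr-201 changed share with glucose, among the *Prlr* transcripts with at least 5% of the counts on average in any group. Prlr-212 rose by 6.88 percentage points. Prlr-201, annotated as a retained intron, fell by 7.52 points, from 34 to 26.4%. Each of these had an exact permutation p = 0.00794 (two-sided, n = 5 per group), the smallest this design gives, and an adjusted p = 0.037 over the 14 shares tested, or 0.0476 over the 12 of transcripts that held at least 5% on average over all 17 samples. Leaving out any 1 of the 10 *Pcbp2*βKO samples ended both calls, because the smallest p then possible is larger.

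Prlr-205, another short form with 310 codons, reached 5% only through the groups at 16.7 mM, so its shares are given as a description. They were 2.70, 2.34 and 3.29% at 2.8 mM and 6.89, 6.32, 7.32 and 5.42% at 16.7 mM in control cells, and 1.85 to 3.67% and 4.62 to 7.41% in *Pcbp2*βKO cells. The share of Prlr-201 in control cells was 28.0 ± 4.15% (SD, n = 3) at 2.8 mM and 20.6 ± 4.15% (SD, n = 4) at 16.7 mM, with an exact permutation p = 0.114, where 3 against 4 samples cannot go below 0.0571. Shares of counts favour long transcripts: on the TPM scale, which divides by length, Prlr-212 was the most abundant *Prlr* transcript in control cells, at 36.7 ± 11.7 TPM (SD, n = 3) at 2.8 mM against 11.3 ± 3.64 TPM for Prlr-202. The corresponding levels in *Pcbp2*βKO cells at 2.8 mM were 7.21 ± 2.62 TPM (SD, n = 5) for Prlr-212 and 4.69 ± 1.49 TPM for Prlr-202, and there Prlr-201 was above both on average, at 10.6 ± 3.16 TPM, where control cells had 20.7 ± 2.26 TPM. A same-strand gene model that overlaps *Prlr*, *Gm21973*, held at most 0.0967 CPM on average in a group.

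The growth hormone receptor gene *Ghr* (chr15:3347235-3613024, minus strand) was at 208 to 309 CPM in control cells and at 257 to 415 CPM in *Pcbp2*βKO cells, with all 4 groups overlapping. Its glucose difference did not pass the test in control cells (log2 -0.04 ± 0.18 SE, edgeR adjusted p = 0.917) or in *Pcbp2*βKO cells (log2 -0.15 ± 0.15 SE, edgeR adjusted p = 0.502). The fitted genotype difference was 0.23 ± 0.16 (log2, SE) at 16.7 mM and 0.34 ± 0.17 at 2.8 mM. On the transcript level, Ghr-201, with the full reading frame of 650 codons, took 49.9 to 54.5% of the counts on average in the 4 groups. Ghr-208, also with 650 codons, took 8.83 to 14.0%. Ghr-203, whose 297 codons stop before the membrane span and encode the secreted growth hormone binding protein, took 28.7 to 30.2%. No *Ghr* share passed the test between glucose concentrations. On the TPM scale Ghr-203 was the most abundant of these transcripts on average in every group. In control cells at 2.8 mM it was at 69.7 ± 7.73 TPM (SD, n = 3) against 27.9 ± 4.59 TPM for Ghr-201. In TPM the *Ghr* gene was above *Prlr* in all 3 control samples at 2.8 mM (125 ± 10 against 82.4 ± 22.8 TPM, SD) and below it in all 4 at 16.7 mM (70.3 ± 16.3 against 210 ± 109 TPM).

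The STAT5 genes lie side by side on chromosome 11 (*Stat5a*, chr11:100750177-100776065, plus strand, and *Stat5b*, chr11:100671556-100741589, minus strand). Both fell in high glucose in both genotypes. *Stat5a* was at 23.6, 14.9 and 22.0 CPM in control cells at 2.8 mM and at 10.1, 6.34, 6.35 and 10.4 CPM at 16.7 mM, with no overlap (log2 -1.28 ± 0.30 SE, edgeR adjusted p = 0.00771). The *Pcbp2*βKO samples lay at 11.4 to 25.3 CPM at 2.8 mM and 7.19 to 15.6 CPM at 16.7 mM, with overlap (log2 -0.97 ± 0.25 SE, edgeR adjusted p = 0.00625). The decrease held under all 25 alternatives in both genotypes.

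*Stat5b* was the more abundant of the pair, at 24.3 ± 4.21 TPM against 6.41 ± 1.81 TPM (SD, n = 3) in control cells at 2.8 mM. It was at 92.4 to 130 CPM in control cells at 2.8 mM and at 54.4 to 82.2 CPM at 16.7 mM, without overlap (log2 -0.75 ± 0.19 SE, edgeR adjusted p = 0.0115), a call that ended without control replicate 1 at 2.8 mM (edgeR adjusted p = 0.0652). The range in *Pcbp2*βKO cells was 110 to 153 CPM at 2.8 mM and 54.9 to 78.4 CPM at 16.7 mM (log2 -1.02 ± 0.16 SE, edgeR adjusted p = 0.000125). Between genotypes the fitted differences were -0.01 ± 0.28 for *Stat5a* and 0.24 ± 0.18 for *Stat5b* at 2.8 mM, and 0.31 ± 0.26 and -0.03 ± 0.17 at 16.7 mM (log2, SE), all with overlapping samples. *Stat5a* overlaps *Stat3* on the opposite strand, and whether strand was used in counting is not given in the sources used here.

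*Cish* (chr9:107173225-107179983, plus strand) encodes CIS, a feedback inhibitor and a classical STAT5 target, and its promoter is shown because it holds the STAT5 palindrome more than once. The sequence is RefSeq's on the plus strand, 5′ to 3′, in build GRCm38.p6 (chr9:107296409-107296708), from 250 bases before to 50 bases after the start of the gene, with each match to TTCNNNGAA in capitals:
Cish promoter: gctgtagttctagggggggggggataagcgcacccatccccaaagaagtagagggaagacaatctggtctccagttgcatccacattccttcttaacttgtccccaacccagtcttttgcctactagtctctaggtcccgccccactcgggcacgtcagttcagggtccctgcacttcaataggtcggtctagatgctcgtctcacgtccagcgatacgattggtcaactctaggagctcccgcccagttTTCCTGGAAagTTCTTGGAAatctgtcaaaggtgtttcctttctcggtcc
The matches begin at bases 251 and 262 of this window and do not overlap. Of 32851 mouse promoters of the same length, 8.30% held at least 1 match and 0.457% held 2 or more, counted on one strand since the motif reads the same on the other. Of the 10 members, 9 had 15 promoters in the table, and *Prlr* and *Socs3* had 1 promoter each with a match, shown here as 60 bases around it:
Prlr, second promoter, bases 116 to 175, chr15:10223771-10223830, plus strand: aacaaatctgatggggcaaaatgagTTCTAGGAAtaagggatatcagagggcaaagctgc
Socs3, bases 72 to 131, chr11:117969486-117969545, minus strand: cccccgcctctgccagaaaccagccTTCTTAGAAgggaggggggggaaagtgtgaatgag
The windows of *Ghr*, *Stat5a*, *Stat5b*, *Tph1*, *Tph2* and *Ehhadh* held no match, and these letters were not searched outside the windows.

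*Cish* was at 60.8, 28.7 and 103 CPM in control cells at 2.8 mM and at 104, 166, 220 and 55.7 CPM at 16.7 mM. The *Pcbp2*βKO samples were at 5.53, 5.22, 6.95, 6.63 and 7.83 CPM at 2.8 mM and at 14.3, 16.0, 11.1, 8.21 and 17.9 CPM at 16.7 mM. The highest of the 10 *Pcbp2*βKO samples was below the lowest of the 7 control samples. The fitted genotype difference was -3.34 ± 0.37 (log2, SE), 10.1-fold lower, at 16.7 mM and -3.32 ± 0.39 at 2.8 mM, and it ranged from -3.67 to -2.80 over the alternatives at both concentrations.

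Glucose raised *Cish* 2.10-fold in *Pcbp2*βKO cells (log2 1.07 ± 0.34 SE, edgeR adjusted p = 0.0223), with no overlap between the concentrations. The adjusted p was 0.0503 to 0.0524 without *Pcbp2*βKO replicate 1 or 2 at 2.8 mM, or without replicate 2 or 5 at 16.7 mM. On the TPM scale, where the median of all genes was -0.71, the *Cish* estimate was 0.03 (log2, limma adjusted p = 0.944). In control cells the difference was of the same size (log2 1.09 ± 0.41 SE) and did not pass the test (edgeR adjusted p = 0.0794). It passed in 5 of the 25 alternatives, among them the replicate number as a block (log2 1.45, edgeR adjusted p = 0.00563). No source says that equal numbers mark pairs. Others were those without control replicate 4 at 16.7 mM (edgeR adjusted p = 0.0131) or control replicate 3 at 2.8 mM (edgeR adjusted p = 0.0263).

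*Socs2* (chr10:95219523-95253929, minus strand), whose product restrains growth hormone signalling, was at 82.4, 82.2 and 113 CPM in control cells at 2.8 mM and at 81.0, 119, 148 and 71.8 CPM at 16.7 mM. Levels in *Pcbp2*βKO cells were 19.9, 22.9, 22.2, 21.1 and 15.7 CPM at 2.8 mM and 28.7, 28.4, 23.6, 35.3 and 48.3 CPM at 16.7 mM. As with *Cish*, no *Pcbp2*βKO sample reached the lowest control sample. The fitted genotype difference was -1.68 ± 0.22 (log2, SE) at 16.7 mM and -2.19 ± 0.23 at 2.8 mM. High glucose raised *Socs2* 1.61-fold in *Pcbp2*βKO cells (log2 0.69 ± 0.21 SE, edgeR adjusted p = 0.0172, and 0.0564 without replicate 5 at 16.7 mM), a direction that turned on the TPM scale (log2 -0.38). In control cells the difference of 0.18 ± 0.25 (log2, SE) did not pass (edgeR adjusted p = 0.696).

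*Socs3* (chr11:117856905-117860898, minus strand), an inhibitor that many cytokine receptors induce through STAT3, did not share the genotype pattern of *Cish* and *Socs2*. It was at 1.82 to 2.97 CPM in control cells and 2.36 to 5.45 CPM in *Pcbp2*βKO cells at 2.8 mM, and at 4.46 to 14.6 and 6.02 to 10.2 CPM at 16.7 mM, with the genotypes overlapping at each concentration. High glucose raised it 3.90-fold in control cells (log2 1.96 ± 0.38 SE, edgeR adjusted p = 0.00303), where the call held under all 25 alternatives. The increase in *Pcbp2*βKO cells was 2.28-fold (log2 1.19 ± 0.30 SE, edgeR adjusted p = 0.0061), and it was not called under scaling by total counts (edgeR adjusted p = 0.0575) or on the TPM scale (limma adjusted p = 0.479). Both groups at 16.7 mM lay above those at 2.8 mM of the same genotype without overlap.

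The tryptophan hydroxylases, which catalyse the first step of serotonin synthesis, were the members with the largest genotype differences. *Tph1* (chr7:46294065-46321965, minus strand), the form induced in β cells by lactogens, was at 7.07, 6.76 and 11.5 CPM in control cells at 2.8 mM and at 232, 406, 661 and 34.5 CPM at 16.7 mM. Levels in *Pcbp2*βKO cells were 0.0559, 0.0587, 0.159, 0.173 and 0.03 CPM at 2.8 mM and 0.548, 0.883, 0.477, 0.0134 and 0.707 CPM at 16.7 mM. These levels rest on 3 to 15 estimated counts per library at 2.8 mM and on 1 to 55 at 16.7 mM, against 524 or more in every control library. The lowest control sample was above the highest *Pcbp2*βKO sample.

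High glucose raised *Tph1* 39.5-fold in control cells (log2 5.30 ± 0.82 SE, edgeR adjusted p = 0.000792), the largest change with glucose among the members there, and it passed under all 25 alternatives. The 4 control samples at 16.7 mM spread widely, with replicate 4 far below the other 3. The concentrations overlapped in *Pcbp2*βKO cells through replicate 4 at 16.7 mM, and a 5.68-fold increase passed the test (log2 2.51 ± 0.85 SE, edgeR adjusted p = 0.0322). It rested on few counts: the call ended when any 1 of 6 samples was left out, namely replicate 1, 2 or 5 at either concentration, with adjusted p values from 0.0528 to 0.0795. The fitted genotype difference was -9.32 ± 0.80 (log2, SE) at 16.7 mM and -6.52 ± 0.82 at 2.8 mM, and the difference between the glucose responses of the genotypes was -2.80 ± 1.19.

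*Tph2* (chr10:114914546-115020927, minus strand), the form best known from serotonin neurons of the brain, lay close to *Tph1* in control cells at 2.8 mM, at 9.69, 6.15 and 11.9 CPM. On the TPM scale the means were 4.02 and 4.00 TPM, and *Tph2* was above *Tph1* in 1 of 3 samples. At 16.7 mM it was at 12.1, 13.9, 23.4 and 9.05 CPM, and the difference of 0.66 ± 0.62 (log2, SE) did not pass the test (edgeR adjusted p = 0.529). The *Pcbp2*βKO libraries held 0 to 22 estimated counts each at 2.8 mM (0 to 0.243 CPM) and 34 to 101 at 16.7 mM (0.437 to 1.73 CPM).

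*Tph2* rose 10.1-fold with glucose in *Pcbp2*βKO cells (log2 3.34 ± 0.62 SE, edgeR adjusted p = 0.00062), without overlap and under all 25 alternatives, with log2 estimates from 1.05 to 3.93. Every *Pcbp2*βKO sample was below every control sample, with fitted differences of -6.44 ± 0.70 (log2, SE) at 2.8 mM and -3.77 ± 0.58 at 16.7 mM. The difference between the genotypes' glucose responses was 2.68 ± 0.86 for *Tph2* and had the opposite sign for *Tph1*.

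*Ehhadh* (chr16:21580036-21606563, minus strand) encodes the bifunctional enzyme of peroxisomal β-oxidation. It was at 43.8 to 77.2 CPM in the 7 control samples. The *Pcbp2*βKO samples had 30.3, 102, 25.2, 25.2 and 26.2 CPM at 2.8 mM and 33.8, 48.5, 24.4, 26.1 and 20.8 CPM at 16.7 mM. Replicate 2 had the highest level at both concentrations, and in the other 4 replicates all values were below the lowest control. The fitted genotype difference was -0.61 ± 0.40 (log2, SE) at 2.8 mM, -1.26 without replicate 2 at that concentration, and -0.98 ± 0.38 at 16.7 mM. In all 4 groups replicate 2 had both the highest *Ehhadh* level and the highest sum of the 4 ductal markers, which was 94.1 CPM in *Pcbp2*βKO replicate 2 at 2.8 mM against 24.1 to 49.2 CPM in the other 4. The alpha cell markers summed to 6475 CPM in that sample and to 9162 CPM in replicate 4, where *Ehhadh* was at 25.2 CPM. The part of either list in the *Ehhadh* levels was not tested. Glucose differences did not pass the test in control (log2 -0.08 ± 0.43 SE, edgeR adjusted p = 0.935) or *Pcbp2*βKO cells (log2 -0.44 ± 0.36 SE, edgeR adjusted p = 0.395).

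**Figure D2:**
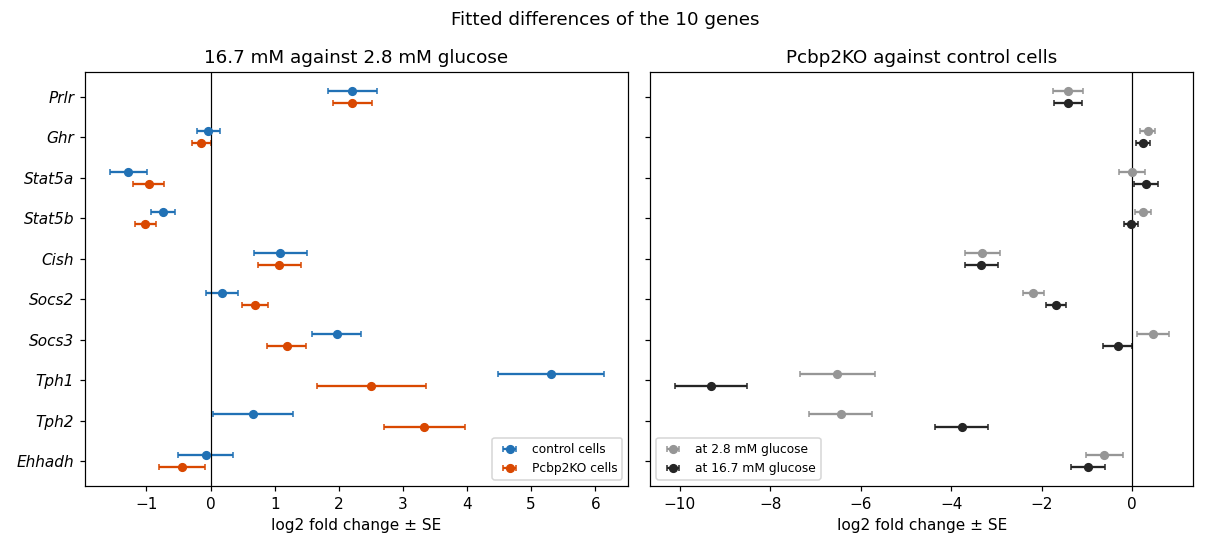
Fitted log2 fold changes (± SE) of the 10 genes, between glucose concentrations within each genotype (left) and between genotypes at each concentration (right, a description without a test). Prlr rose by the same 2.21 in both genotypes, and the genotype differences are most negative for Tph1 and Tph2, from -3.77 to -9.32, and near 0 for Ghr, Stat5a, Stat5b and Socs3.

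Counted over the members, glucose changed 5 of 10 in control cells, with *Prlr*, *Socs3* and *Tph1* higher and *Stat5a* and *Stat5b* lower, where 13.8% of all genes tested were called. Of the 10, 8 were called in *Pcbp2*βKO cells, with *Cish*, *Socs2* and *Tph2* joining the higher genes, where 23.8% of all genes were. The median log2 difference over the 10 genes was 0.42 in control cells and 0.88 in *Pcbp2*βKO cells, against 0.04 and 0.01 over all genes. With 1 sample left out, 5 to 8 members were called in *Pcbp2*βKO cells, 5 of them without replicate 5 at 16.7 mM. Without the 3 samples that stood apart, 6 were called in control and 7 in *Pcbp2*βKO cells.

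In the genotype comparison at 16.7 mM, 4 of the 10 (*Cish*, *Socs2*, *Tph1*, *Tph2*) were lower in every *Pcbp2*βKO sample than in every control sample, as were 2.64% of all genes. At 2.8 mM these 4 and *Prlr* were, against 6.88% of all genes. These counts are a description, since lower expression chose the members. By the edgeR test, 1.71% of all genes were called at 16.7 mM and 2.04% at 2.8 mM. The difference between the glucose responses was called for 0.00439% of the genes (the insulin gene *Ins1* alone, named here because it was the one called), with 1042 at an unadjusted p under 0.05 and 32 called by DESeq2.

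Scaling by total counts, without correction for composition, moved the median glucose difference of all genes to -0.35 in control and -0.47 in *Pcbp2*βKO cells (log2). Under that scaling the calls of *Cish*, *Socs2*, *Socs3* and *Tph1* with glucose in *Pcbp2*βKO cells ended (edgeR adjusted p from 0.0575 to 0.45), while *Ghr* and *Ehhadh* were called lower there (edgeR adjusted p = 0.0022 and 0.0406).

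Among control samples, 5 members ordered the replicates alike. *Prlr*, *Cish*, *Socs2*, *Tph1* and *Tph2* were highest in replicate 3, then 2, 1 and 4 at 16.7 mM, and highest in replicate 3, then 1 and 2 at 2.8 mM. *Ghr*, *Stat5a*, *Stat5b*, *Socs3* and *Ehhadh* each had another order at 16.7 mM. At 2.8 mM *Prlr*, *Cish*, *Socs2*, *Tph1* and *Tph2* had 5 different orders in *Pcbp2*βKO cells, with few counts for *Tph1* and *Tph2*. The control orders are not particular to these members. Outside them *Ivd* had both orders, and *Tnfrsf11b* and *Slc18a1* had the order at 16.7 mM, while *Ccnd2*, for example, had another. How many of all genes share the orders was not counted. Control replicate 4 at 16.7 mM also stood apart on the first principal component. Across all 17 samples Pearson's r of log2 CPM was 0.96 between *Cish* and *Tph1*, 0.95 between *Cish* and *Socs2* and 0.91 between *Cish* and *Tph2*, and it was 0.32 between *Cish* and *Socs3*. These coefficients describe samples of 4 groups and include the group differences.

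Of 10013 genes with at least 5 CPM, those most like *Prlr* over the 17 samples were *Prepl*, *Syn1*, *Lrrtm2*, *Acyp2* and *Tceal9* (r from 0.968 to 0.974). *Syn1*, which encodes the vesicle protein synapsin, went from 41.5 ± 4.82 (SD, n = 3) to 71.8 ± 11.1 CPM (n = 4) with glucose in control cells and from 27.6 ± 3.17 to 54.0 ± 5.92 CPM (n = 5 each) in *Pcbp2*βKO cells. For *Cish* they were *Neb*, *Tph1*, *Dnah8*, *Srbd1* and *Rasgrp1* (r from 0.954 to 0.979), and for *Tph1* they were *Rasgrp1*, *Cish*, *Neb*, *Sftpd* and *Crispld2* (r from 0.939 to 0.975). *Neb*, which encodes the muscle protein nebulin, was at 50.7 ± 31.5 CPM (SD, n = 4) in control and 2.30 ± 0.95 CPM (n = 5) in *Pcbp2*βKO cells at 16.7 mM. *Sftpd*, which encodes a surfactant protein, was at 186 ± 129 CPM and 0.177 ± 0.081 CPM in the same groups.

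The hormones themselves were at or near the floor. *Prl*, *Gh* and 4 placental lactogen genes (*Prl3d1*, *Prl3d2*, *Prl3d3*, *Prl3b1*) had at most 13 estimated counts in any library, and none passed the filter on low counts. Of 55 other genes on 6 lists of this pathway, 47 were tested. The lists were written with earlier results of these data known, so their p values between genotypes are not independent support. *Tnfrsf11b*, *Ivd* and *Igfals*, called below, were already among the genes the paper gives as altered with *Pcbp2* deficiency. So were the members *Prlr*, *Cish*, *Socs2*, *Tph2* and *Ehhadh*.

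In the genotype comparison, 3 of the 47 were called lower at 16.7 mM and 4 at 2.8 mM, none higher. Of all genes tested, 1.71% were called at 16.7 mM, 323 lower and 66 higher, and 2.04% at 2.8 mM, 406 lower and 58 higher. The log2 differences had a list median of 0.10 and 0.03 (log2) against 0.01 and 0.03 over all genes. At 16.7 mM, 5 were called without the 3 samples that stood apart or without control replicate 4 alone. *Tnfrsf11b*, which encodes osteoprotegerin, a lactogen target in islets, was at 39.9 to 108 CPM in control and 0.905 to 3.07 CPM in *Pcbp2*βKO cells at 2.8 mM, and at 40.6 to 175 and 1.91 to 12.8 CPM at 16.7 mM. Its difference was -5.00 ± 0.59 (log2, SE, edgeR adjusted p = 5.02e-05) at 2.8 mM and -4.08 ± 0.55 (edgeR adjusted p = 0.00027) at 16.7 mM. *Ivd*, which encodes an enzyme of leucine breakdown, was at 161 to 317 CPM in all control and 72.1 to 115 CPM in all *Pcbp2*βKO samples, with differences of -1.21 ± 0.20 (edgeR adjusted p = 0.00159) and -1.67 ± 0.19 (edgeR adjusted p = 4.21e-05).

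*Igfals*, which encodes the acid-labile subunit of the circulating IGF complex and responds to growth hormone in liver, was lower at 2.8 mM (log2 -0.89 ± 0.20 SE, edgeR adjusted p = 0.026) and at 16.7 mM (log2 -0.80 ± 0.19 SE, edgeR adjusted p = 0.0365). Its call ended in 5 and in 9 of the 17 analyses that left out 1 sample, namely those without control replicate 1 or 3 or *Pcbp2*βKO replicate 2, 4 or 5 at 2.8 mM, and those without control replicate 1, 2 or 3 or any *Pcbp2*βKO replicate at 16.7 mM or control replicate 1 at 2.8 mM. *Igf1* itself was at 2.41 CPM or less in every sample and was not called between genotypes. The cyclins *Ccnd1* and *Ccnd2*, the cell cycle factor *Foxm1* and the menin gene *Men1*, all connected with lactogen effects on β cell growth, were not called between genotypes either. Besides the called genes, *Foxm1* and *Birc5* at 16.7 mM and *Bcl6* and *Slc2a2* at 2.8 mM on this list had an unadjusted edgeR p under 0.05. *Foxm1* averaged 1.37 ± 1.08 CPM (SD, n = 4) in control and 6.35 ± 4.67 CPM (n = 5) in *Pcbp2*βKO cells at 16.7 mM, with overlapping samples.

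None of the 9 kinase, adaptor and phosphatase genes, which include *Jak2*, and none of the 10 other *Socs* and *Stat* genes passed the edgeR test between genotypes, nor did any by DESeq2. At an unadjusted p under 0.05 were 2 (*Jak3*, *Ptpn2*) of these 19 genes at 16.7 mM and 2 (*Ptpn1*, *Socs4*) at 2.8 mM. Among 11 tested genes of serotonin handling, edgeR called only *Slc18a1*, the vesicular monoamine transporter 1 gene, at 41.4 to 45.9 CPM in control and 9.56 to 15.1 CPM in *Pcbp2*βKO cells at 2.8 mM (log2 -1.84 ± 0.26 SE, edgeR adjusted p = 0.000433). At 16.7 mM it was at 51.1 to 110 and 24.3 to 64.7 CPM and was not called. DESeq2 also called *Maob*, which encodes a serotonin-degrading oxidase, at 2.8 mM, where edgeR gave a log2 difference of -0.81 ± 0.21 SE (edgeR adjusted p = 0.0541). The difference between the glucose responses was called for none of the 47 genes by edgeR or DESeq2, with 5 at an unadjusted p under 0.05. In simulated counts edgeR recovered only 46.5% of known changes in this comparison, so a difference that was not called may still exist. None of the 3 other listed genes of peroxisomal β-oxidation (*Hsd17b4*, *Acaa1a*, *Acaa1b*) was called between genotypes by edgeR or DESeq2, and none had an unadjusted p under 0.05.

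**Figure D3:**
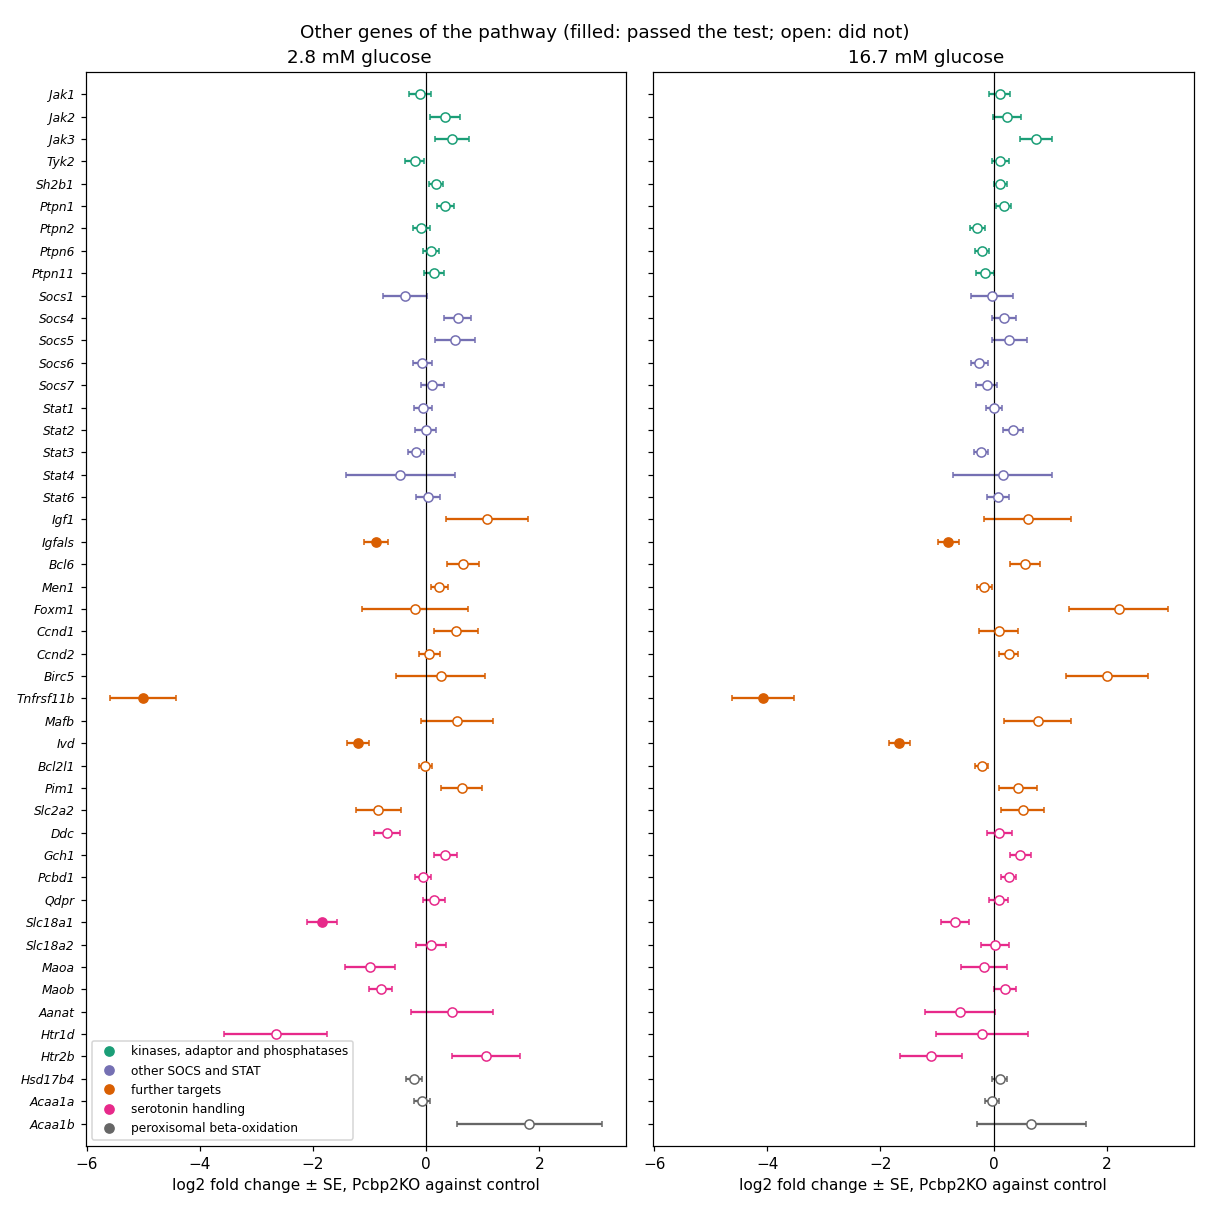
Fitted log2 fold changes (± SE) of the 47 tested genes on the pathway lists, Pcbp2βKO against control cells, at 2.8 mM (left) and 16.7 mM glucose (right), coloured by list. Filled points passed the test: Tnfrsf11b, Ivd and Igfals lie below 0 at both concentrations and Slc18a1 at 2.8 mM, and every other point is open. The lists were written with earlier results of these data known, so these tests are not independent support.

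Between glucose concentrations, 6 of the 47 were called in control cells, where 13.8% of all genes were, and 17 in *Pcbp2*βKO cells, where 23.8% were. In control cells 12 were called with the replicate block and 15 without the 3 samples that stood apart. Higher in both were *Ccnd1* (cyclin D1, log2 1.86 ± 0.42 and 1.42 ± 0.34 SE) and *Ddc* (aromatic amino acid decarboxylase, which turns 5-hydroxytryptophan into serotonin, log2 1.13 ± 0.26 and 1.92 ± 0.22 SE), with edgeR adjusted p values of 0.00706, 0.00352, 0.00746 and 9.8e-06. *Slc18a1* (log2 0.87 ± 0.28 and 2.03 ± 0.24 SE) was also higher in both, a direction that turned on the TPM scale in control cells, where the call also ended in 9 of the 17 analyses that left out 1 sample, among them those without any 1 control sample other than replicate 4 at 16.7 mM. Lower in both were *Bcl6*, a repressor that opposes STAT5 (log2 -2.09 ± 0.30 and -2.18 ± 0.26 SE), *Igf1* (log2 -2.61 ± 0.81 and -3.08 ± 0.68 SE) and the thiolase gene *Acaa1a* (log2 -0.75 ± 0.14 and -0.71 ± 0.12 SE). The *Igf1* call in control cells ended with the replicate block (edgeR adjusted p = 0.0609) and without control replicate 1 or 3 at 2.8 mM or 2, 3 or 4 at 16.7 mM. The 4 macrophage markers moved with *Igf1*, from 7.92 to 15.1 CPM at 2.8 mM to 2.01 to 6.10 CPM at 16.7 mM in control and from 6.66 to 23.2 to 1.22 to 3.46 CPM in *Pcbp2*βKO cells, and their part in it was not tested. The call of *Ddc* in control cells ended without control replicate 2 at 2.8 mM.

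Called in *Pcbp2*βKO cells and not in control cells were also *Foxm1* (log2 4.00 ± 0.88 SE), the survivin gene *Birc5* (log2 3.74 ± 0.73 SE) and the glucose transporter gene *Slc2a2* (log2 2.09 ± 0.36 SE), all higher, and *Maob*, likewise higher (log2 1.32 ± 0.19 SE). *Foxm1* was at 0.0117 to 1.18 CPM at 2.8 mM and 0.437 to 11.9 CPM at 16.7 mM, and *Birc5* at 0.587 to 1.34 and 0.553 to 21.4 CPM. Replicate 5 was the lowest at 16.7 mM for both genes and did not share the rise. In control cells *Birc5* averaged 0.688 CPM at 2.8 mM and 2.74 CPM at 16.7 mM. *Jak3* and *Tyk2* were higher (log2 0.89 ± 0.26 and 0.63 ± 0.14 SE), with directions that turned on the TPM scale, and *Jak2*, *Ptpn2*, *Socs4* and *Socs7* were lower (log2 -0.74, -0.64, -0.80 and -0.74). With the replicate block *Jak2* was called lower in control cells too (log2 -0.88, edgeR adjusted p = 0.0381). The call of *Jak2* in *Pcbp2*βKO cells ended without *Pcbp2*βKO replicate 1, 3 or 4 at 2.8 mM or 3 at 16.7 mM, that of *Jak3* without replicate 2 at 16.7 mM, that of *Tyk2* without replicate 2 or 5 at 2.8 mM and that of *Ptpn2* without replicate 2 at 2.8 mM. The glucose responses of these genes were not called as different between the genotypes.

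Ordered by length-corrected level, the members stood as *Ghr*, *Prlr*, *Socs2*, *Stat5b*, *Cish*, *Ehhadh*, *Stat5a*, *Tph2*, *Tph1* and *Socs3* in control cells at 2.8 mM, from 125 to 1.11 TPM on average. Of these neighbours, *Stat5b* and *Cish*, *Cish* and *Ehhadh*, and the *Tph* genes changed places in at least 1 of the 3 samples. At 16.7 mM *Prlr* and *Tph1* led in control cells, with 210 ± 109 and 93.2 ± 78.7 TPM (SD, n = 4), and *Tph1* was above *Ghr* in 2 of 4 samples. *Ghr* led in *Pcbp2*βKO cells at both concentrations (176 ± 36.9 and 80.7 ± 17.8 TPM, SD, n = 5), and at 16.7 mM it was above *Prlr* in 3 of 5 samples. *Cish* was at 2.26 ± 0.44 and 2.37 ± 0.75 TPM there, next to *Stat5a* and *Socs3*, and the *Tph* genes came last at both concentrations, at 0.069 to 0.227 TPM on average.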

How the data were processed

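Poly(A) RNA of sorted β cells was sequenced as 150-nt read pairs. Per the labels and the study's methods, the authors pseudoaligned reads with Kallisto to a mouse transcriptome (GRCm39), and they deposited estimated counts per transcript, not normalized between samples, and TPM, scaled by transcript length and sample total. Versions, strand use and the levels of the authors' batch term are not given in the sources used here, so no batch term was fitted.

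Estimated counts were summed per gene and rounded, scaled by TMM (factors 0.752 to 1.29) and filtered by edgeR's default (22784 genes). The model of edgeR 4.0.16 (R 4.3.3) held 4 group means over 17 samples, and genes were called at an adjusted p under 0.05 (Benjamini-Hochberg) with a fold over 1.5. Members carry no p between genotypes or for the interaction. The members and the lists were chosen with earlier results of these data known, and 2 listed genes are not reported here. Named were all members, *Pcbp2*, listed genes that were called (up to the 3 largest changes per list and direction, others where levels bear on a result), and the 5 genes most like *Prlr*, *Cish* and *Tph1*. Transcript shares were compared by exact permutation tests.

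Alternatives were other scalings, DESeq2 1.42.0, limma 3.58.1 on log2(TPM + 0.1), no filter, samples left out and a replicate block. The fits were tested on simulated counts with known changes in 200 genes. There edgeR recovered 46.5% of them for the interaction and 68 to 82.5% in the other comparisons, and 2.11 to 6.21% of its calls were false. Of the DESeq2 calls, 12.8 to 24.4% were false. The simulated counts took the spread that edgeR had fitted, changed far fewer genes than were called with glucose, and held no samples that stood apart. These rates, and the contrast between the tools, therefore need not hold for the data themselves. The replicate block takes equal numbers as pairs, although no source says what the numbers mark. Deviations of same-numbered control samples correlated at 0.199, 0.123 and 0.258. Differently numbered samples were not compared, so these values do not establish pairs. Promoter sequences came from RefSeq (GRCm38.p6) and gene positions from GENCODE (GRCm39). Marker genes of islet and other pancreatic cell types were summed in CPM.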

Additional observations from a re-analysis of the deposited data

Results flagged for a closer look

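In 3 of 30 sets of 4 or 5 samples of a group, 1 sample lay further from the others than Dixon's 95% limit allows on the log2 CPM scale, where chance gives about 1 in 20. *Prlr* was at 256 CPM in *Pcbp2*βKO replicate 4 at 16.7 mM, below 443 CPM or more in the other 4. In the same sample *Tph1* was at 0.0134 CPM, 1 estimated count, below 0.477 CPM or more. That sample is also among the 3 that stood apart on the first principal component. *Ehhadh* was at 102 CPM in *Pcbp2*βKO replicate 2 at 2.8 mM, above 30.3 CPM or less in the other 4.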

How the results depend on the processing

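Of 2125 values of single genes under an alternative, 2023 kept direction and side of the threshold or moved by less than 1 SD between replicates, 80 lost their call, 10 gained one, 7 moved further and 5 turned. Those that turned did so on log2(TPM + 0.1) with limma, with glucose in *Pcbp2*βKO cells for *Socs2* (-0.38), *Jak3* (-0.16), *Tyk2* (-0.36) and *Pcbd1* (-0.31) and in control cells for *Slc18a1* (-0.073), where the median of all genes moved to -0.71 and -0.56. On that scale 8902 genes (20 listed) were called with glucose in control cells and 12449 (31 listed) in *Pcbp2*βKO cells, 3 for the interaction and 2 listed genes for the knockout at 2.8 mM. Total counts alone gave 4837 (13 listed) in control cells. DESeq2 called 721 genes for the knockout at 16.7 mM, 835 at 2.8 mM and 32 for the interaction, and without the filter 15 were called for the interaction. Without the 3 samples apart on the first principal component the counts were 4898 (15 listed) with glucose in control cells, 587 (5 listed) for the knockout at 16.7 mM and 2 for the interaction. The replicate block gave 5024 genes (12 listed) with glucose in control cells, 17 for the interaction and 0 transcript shares, because 5 pairs cannot reach the threshold. Outside the control glucose comparison, deviations of samples with equal numbers correlated at 0.047 to 0.354, with a value below 0.1 in every comparison, and among the members' glucose calls the block changed only that of *Cish* in control cells. With 1 sample left out, genes called ranged from 1382 (without control replicate 2 at 2.8 mM) to 4480 with glucose in control cells (4 to 11 listed, the highest without control replicate 4 at 16.7 mM), from 213 (without control replicate 3) to 652 (without control replicate 4) for the knockout at 16.7 mM (2 to 5 listed), from 242 (without control replicate 3) to 529 at 2.8 mM, and from 0 to 2 for the interaction. Members called with glucose in *Pcbp2*βKO cells ranged from 5 to 8, and transcript shares from 0 to 3, against 3 as reported, of which 2 were of transcripts with 5% or more on average over all samples, a minimum chosen after seeing the data. The counts as reported were 3153 genes with glucose in control and 5431 in *Pcbp2*βKO cells, 389 and 464 for the knockout at 16.7 and 2.8 mM, and 1 for the interaction, and the cause of the shifts was not tested. The genotype differences of *Tph1* and *Tph2* at 2.8 mM depend on few counts and became -4.47 and -4.71 on log2(TPM + 0.1).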
